A study of Mus musculus with 10 samples.

Results

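A set of 30 genes of the p53 pathway were followed in mouse subcutaneous fat 70 days after the hindlimb was irradiated with electrons. They are p53 itself (Trp53), its inhibitors Mdm2 and Mdm4, and 27 genes known as p53 targets, each taken from the files by its symbol. The targets fall by role into growth arrest and growth control (Cdkn1a, Ccng1, Btg2, Plk2, Zmat3), apoptosis (Bax, Bbc3, Pmaip1, Perp, Apaf1, Aen, Ei24, Phlda3, Trp53inp1), receptors of the TNF receptor family (Fas, Tnfrsf10b, Eda2r), metabolism and secreted signal (Sesn1, Sesn2, Tigar, Ddit4l, Gdf15) and DNA repair with nucleotide supply (Ddb2, Xpc, Polk, Ercc5, Rrm2b). All 30 were found among the 24421 gene symbols of the files, and all 30 passed the filter on low counts with 10 libraries. In GENCODE M21 (mm10) all 30 are protein-coding genes.

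RNA was sequenced from the inguinal white fat pad under the skin of C57BL/6J mice. FLASH libraries (n = 4) came from mice whose left hindlimb received 33.3 Gy of electrons at ultra-high dose rate, and CONV libraries (n = 3) from mice given the same dose to the same limb at conventional dose rate. Sham libraries (n = 3) came from mice that were not irradiated. All were taken at day 70 and all are given as sequencing batch 1, and no age is given for the mice. Whether every library stands for its own animal is not said in the labels; the p-values therefore reflect only how these samples spread, which may be technical.

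p53 is a transcription factor that is held low in undamaged cells by the ubiquitin ligase Mdm2, which marks it for destruction, and by Mdm4, which blocks its activity. Radiation breaks DNA, kinases modify p53 and Mdm2, and p53 accumulates as protein and switches on genes that stop the cell cycle, repair DNA or kill the cell. Mdm2 is itself a target, which closes a negative loop, so transcripts of the targets and not of Trp53 are the usual readout of p53 activity. Whether such transcripts still differ from sham so long after irradiation, and between dose rates, is what the comparisons address.

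Promoter windows were searched for matches to the p53 consensus site. The consensus is a pair of decamers, each its own reverse complement, so 1 strand was searched. RefSeq promoter windows on GRCm38.p6 (250 bases before to 50 after a transcription start) were at hand for 22 of the 30 genes, in 30 windows. A decamer without mismatch stood in 11 of these 30 windows (36.7%), against 8.36% of all 32851 windows, and by gene in 10 of 22 (45.5%), against 9.55% of 27025. A full site of 2 adjoining decamers with at most 1 mismatch was found in 2 of the windows, those of Cdkn1a and Ccng1, and in 29 of all windows (0.0883%). A match is a description of letters and not a measured binding site. The stretches of these 2 windows that lie before the gene are shown 5′ to 3′ because they carry the full site, in capitals. The Cdkn1a stretch is chr17:29090729-29090975, plus strand, with the site starting 51 bases before the RefSeq start of that window. Cdkn1a has another RefSeq window downstream, at chr17:29093519-29093818, which held 0 decamers and at best a full site with 5 mismatches. The Ccng1 stretch is chr11:40755312-40755536, minus strand, with the site starting 195 bases before the start.
Cdkn1a: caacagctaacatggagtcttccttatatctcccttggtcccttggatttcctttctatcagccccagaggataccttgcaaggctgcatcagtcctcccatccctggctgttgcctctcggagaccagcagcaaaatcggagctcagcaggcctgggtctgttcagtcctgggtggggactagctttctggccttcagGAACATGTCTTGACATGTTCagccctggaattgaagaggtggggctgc
Ccng1: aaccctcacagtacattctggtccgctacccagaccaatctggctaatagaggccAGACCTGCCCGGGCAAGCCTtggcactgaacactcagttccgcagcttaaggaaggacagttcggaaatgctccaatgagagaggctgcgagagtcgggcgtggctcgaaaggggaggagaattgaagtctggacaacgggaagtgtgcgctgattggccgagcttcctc
Single decamers, in capitals with 10 bases on each side, are shown for p53 itself, for its inhibitor and for the pore former Bax. They lie at chr11:69580274-69580303 (plus), chr10:117710925-117710954 (minus) and chr7:45467080-45467109 (minus).
Trp53: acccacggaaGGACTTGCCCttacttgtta
Mdm2: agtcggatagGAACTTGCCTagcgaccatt
Bax: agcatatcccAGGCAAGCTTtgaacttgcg
The other windows with a decamer belonged to Aen, Ei24, Sesn1, Ddit4l and Polk. Sites in introns, where several known p53 elements lie, are outside these windows.

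Each library held 22.4 M to 36.0 M gene counts (M, 1e6), and a count of 3 equals 0.0909 to 0.116 CPM (counts per 1e6, scaled by TMM), a floor that covers counting error only. FLASH replicate 3 and CONV replicate 2 stood apart from the other 8 libraries. Their 11 B cell and lymph node markers summed to 2459 and 3079 CPM, against 1.92 to 10.2 CPM in the other 8, and 10 T cell markers to 925 and 606 CPM, against 6.82 to 14.2 CPM. Their 11 adipocyte markers summed to 4364 and 3771 CPM, against 18463 to 25441 CPM, so the fat identity of the tissue was plain in the other 8 and lower in this pair. The lymph node gene Glycam1 was at 36.9 and 144 CPM in the pair and at 0 in 7 of the other 8. Skeletal muscle markers (12 genes) summed to 2810 CPM in CONV replicate 1, 837 CPM in sham replicate 3 and 422 CPM in FLASH replicate 2, and to 59.3 CPM at most elsewhere. Keratinocyte markers (10 genes) summed to 210 CPM in FLASH replicate 4 and to 26.4 CPM at most elsewhere. Macrophage markers (10 genes) summed to 2476 CPM in CONV replicate 1, 1766 CPM in CONV replicate 2, 1332 CPM in FLASH replicate 3 and 830 to 1072 CPM elsewhere. In the pair these 10 genes did not move together. Lyz2 held 1082 CPM of the sum in CONV replicate 2 and 781 CPM in FLASH replicate 3. Mrc1 was at 90.7 and 82.1 CPM there, against 190 to 632 CPM in the other 8, and Adgre1 was also lowest in the pair. In bulk tissue, fewer cells of a type and less RNA per cell cannot be told apart. Counts of genes are therefore given with all 10 libraries and with the 8 that remain without the pair, which leaves 3 FLASH, 2 CONV and 3 sham libraries. Fold changes are given without the pair, mostly beside the value with all 10. Gdf15 fell below the filter with 8 libraries, so 29 of the 30 genes were tested there.

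No p53 gene differed between irradiated and sham fat past the threshold in edgeR (Benjamini-Hochberg adjusted p under 0.05 over all genes tested), with either set of libraries. With 10 libraries 0 of 30 genes were called in FLASH against sham, in CONV against sham and in FLASH against CONV, and the share of all 15266 genes called was 0% each time. With 8 libraries 0 of 29 genes were called in each comparison, while the share of all 15252 genes called was 0% in FLASH against sham, 0.0393% in CONV against sham and 0.0131% in FLASH against CONV. Taking both irradiated groups together against sham gave 0 called p53 genes with both sets, against 0% of all genes. The edgeR counts by role given further on come from these fits, with the same shares of all genes beside them. DESeq2 and limma voom also called 0 of the 30 genes with 10 libraries in each comparison. Of all genes, limma voom called 0 in each. DESeq2 called 0% of all genes in FLASH against sham, 0.432% in CONV against sham and 0.262% in FLASH against CONV. With 8 libraries limma voom called 0 p53 genes. Of all 15252 genes it called 4 in CONV against sham, 3 in FLASH against CONV and 0 in the other comparisons. DESeq2 then called 1 of 29, Pmaip1, in CONV against sham, against 4.33% of all genes, and 0 of 29 in FLASH against sham and in FLASH against CONV, against 0.0262% and 4.37%.

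**Figure D1:**
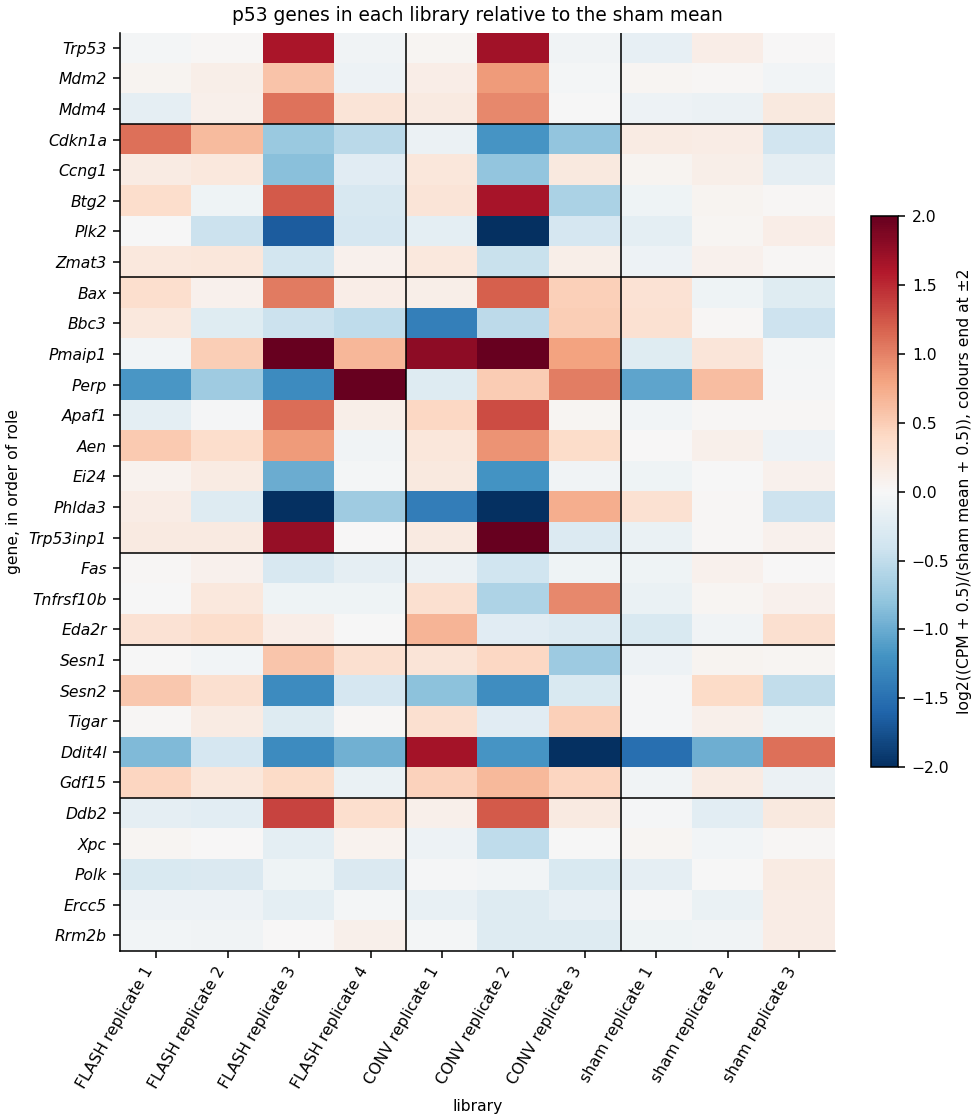
Each cell is the log2 ratio of a gene's TMM-scaled CPM to the mean of the 3 sham libraries, with 0.5 added to both, for 30 genes (rows, grouped by role) in 10 libraries (columns, FLASH, CONV and sham), with colours ending at ±2. FLASH replicate 3 and CONV replicate 2 share a column pattern that sets them apart, while the other libraries are pale for most genes.

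At an unadjusted p under 0.05 the counts stayed small. In FLASH against sham 0 of 30 genes reached it with 10 libraries, against 0.648% of all genes, and 0 of 29 with 8 libraries, against 2.52%. In CONV against sham 1 of 30 did, against 5.82% of all genes, and with 8 libraries 3 of 29, against 13.3%. The 1 of 30 was Gdf15, which passed the low-count filter only through irradiated libraries. In FLASH against CONV 0 of 30 did, against 2.97%, and with 8 libraries 4 of 29, against 13.7%. For both irradiated groups against sham it was 1 of 30, against 3.00%, and with 8 libraries 1 of 29, against 6.88%. The shares for the p53 genes thus lay near or below those of all genes.

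The lymphocyte-rich pair stood apart for most p53 genes, as it did for most genes. Both libraries lay outside the range of the other 8 on the same side for 21 of 30 genes, against 63.5% of all genes. Both lay above it for 11 genes (Trp53, Mdm2, Mdm4, Btg2, Bax, Pmaip1, Apaf1, Aen, Trp53inp1, Sesn1 and Ddb2), against 32.6% of all genes, and below it for 10 (Ccng1, Plk2, Zmat3, Ei24, Phlda3, Fas, Sesn2, Tigar, Xpc and Ercc5), against 31.0%. With the pair left out, the median standard error (SE) of the log2 fold change over the 29 genes was 0.15 in FLASH against sham and 0.17 in CONV against sham, against 0.35 and 0.37 with it. The sign of the fold change differed between the sets for 9 of 29 genes in FLASH against sham and for 8 of 29 in CONV against sham.

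**Figure D2:**
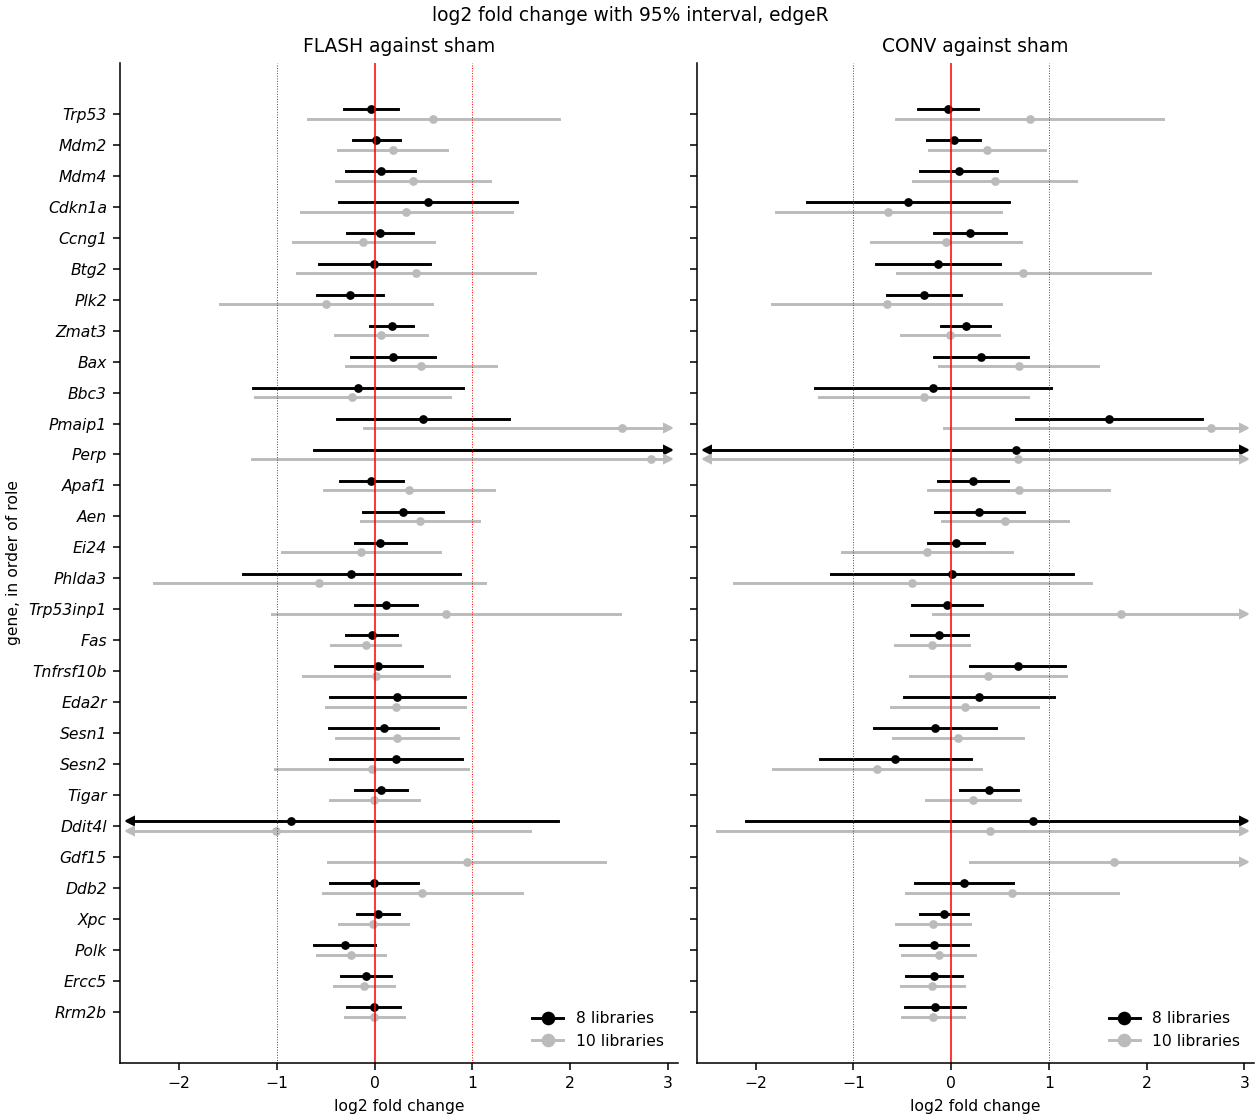
Points are log2 fold changes from edgeR against sham with their 95% intervals, for FLASH (left) and CONV (right), with 8 libraries (black) and with 10 (grey); dotted lines mark 2-fold, and arrows mark intervals that run past the axis. The black intervals are narrower for most genes and nearly all cross 0, and Pmaip1, Tnfrsf10b and Tigar in CONV lie to the right of it.

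Trp53 and its inhibitors were level across the 3 groups outside the pair. Trp53 had 20.6, 21.4, 66.1 and 19.96 CPM in FLASH replicates 1 to 4, 21.7, 68.8 and 20.01 CPM in CONV replicates 1 to 3, and 18.8, 23.2 and 21.3 CPM in sham replicates 1 to 3. The lymphocyte-rich libraries were the only high ones, 3.16-fold and 3.29-fold above the median of the other 8, and the groups overlapped. With 10 libraries the log2 fold change of Trp53 was 0.60 ± 0.57 in FLASH against sham and 0.81 ± 0.60 in CONV against sham (± SE), and with 8 it was -0.04 ± 0.12 and -0.03 ± 0.13. With 10 libraries and the mean of the B cell markers as a covariate it was -0.03 ± 0.12 and -0.08 ± 0.13. These markers were high in the pair alone, so the covariate mainly marks the pair. That fit is therefore not independent of leaving the pair out. Mdm2 had 46.8, 48.7, 67.2 and 41.9 CPM in FLASH, 49.2, 81.5 and 43.6 CPM in CONV, and 46.1, 45.7 and 43.3 CPM in sham libraries. As the target that reports on p53 and restrains it, Mdm2 was the steadiest of the 30 after Xpc, with the highest of the 8 libraries 1.17-fold above the lowest. Its fold change without the pair was 1.01 in FLASH against sham (95% interval 0.855 to 1.20) and 1.02 in CONV against sham (0.844 to 1.23), and the log2 fold change with all 10 libraries was 0.18 ± 0.25 and 0.37 ± 0.26. Mdm4 had 175, 213, 421 and 238 CPM in FLASH, 226, 387 and 199 CPM in CONV, and 186, 183 and 229 CPM in sham libraries. It too was high in the pair alone, and its log2 fold change without the pair was 0.06 ± 0.15 in FLASH against sham and 0.08 ± 0.17 in CONV against sham, beside 0.39 ± 0.35 and 0.44 ± 0.37 with it.

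Of the growth arrest genes, 0 of 5 were called in any comparison with either set, and Cdkn1a was the most uneven. Cdkn1a (chr17:29090976-29100727, mm10) encodes the cyclin-dependent kinase inhibitor p21, which halts the cycle before DNA is copied. It had 57.5, 41.5, 15.7 and 18.0 CPM in FLASH, 24.3, 11.4 and 15.2 CPM in CONV, and 29.8, 29.5 and 20.1 CPM in sham libraries. FLASH replicates 1 and 2 were the 2 highest of all libraries, while FLASH replicate 4 lay below every sham library, so FLASH spanned the sham range and the groups overlapped. Without the pair Cdkn1a averaged 39.0 ± 19.9 CPM over 3 FLASH libraries, 19.7 ± 6.49 CPM over 2 CONV libraries and 26.5 ± 5.49 CPM over 3 sham libraries (± SD). The log2 fold change was 0.55 ± 0.39 in FLASH against sham and -0.44 ± 0.45 in CONV against sham, and the fold was 1.46 (95% interval 0.777 to 2.75) and 0.737 (0.361 to 1.51). With the pair the log2 fold change was 0.33 ± 0.48 and -0.64 ± 0.51. FLASH against CONV gave 0.99 ± 0.45 with 8 libraries (edgeR, Benjamini-Hochberg adjusted p = 0.393) and 0.97 ± 0.49 with 10 (adjusted p = 0.999). These intervals leave room for a 2-fold higher level of Cdkn1a in FLASH and a 2-fold lower level in CONV, and for no difference in either.

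Ccng1, a cyclin that feeds back on the Mdm2 loop, was the second most abundant of the 30 per length of exon, at 59.4 CPM per kb in sham. It had 233, 242, 117 and 178 CPM in FLASH, 243, 120.3 and 239 CPM in CONV, and 216, 226 and 183 CPM in sham libraries. The pair was low, and the 2 other CONV libraries lay above all sham libraries by a log2 fold change of 0.19 ± 0.16 (adjusted p = 0.647, edgeR, Benjamini-Hochberg). With all 10 libraries the sign was the opposite, -0.053 ± 0.34. Zmat3, an RNA-binding zinc finger protein and p53 target, had 69.4, 69.9, 46.4 and 63.7 CPM in FLASH, 68.9, 43.7 and 64.8 CPM in CONV, and 55.6, 63.0 and 60.4 CPM in sham libraries. All irradiated libraries outside the pair lay above all sham libraries, by small amounts. Its log2 fold change was 0.17 ± 0.10 in FLASH against sham and 0.15 ± 0.11 in CONV against sham, with unadjusted edgeR p-values of 0.106 and 0.205. All 10 libraries gave 0.06 ± 0.21 and -0.012 ± 0.22, so the sign in CONV turned. Zmat3 was the only p53 gene with no overlap between both irradiated groups together and sham in the 8 libraries, 1 of 29, against 3.21% of all genes, and with 10 libraries there was none, 0 of 30, against 1.81%. Btg2, an antiproliferative adaptor of mRNA decay, had 70.0, 51.9, 129 and 43.8 CPM in FLASH, 66.0, 174 and 35.3 CPM in CONV, and 51.7, 57.3 and 56.0 CPM in sham libraries. The pair was the highest, and CONV replicate 3 the lowest. Its fold without the pair was 0.998 (95% interval 0.673 to 1.48) in FLASH against sham and 0.911 (0.585 to 1.42) in CONV against sham, and the log2 fold change with the pair was 0.42 ± 0.54 and 0.74 ± 0.57. Plk2, a kinase of the centrosome and stress responses, had 37.5, 27.8, 11.5 and 29.8 CPM in FLASH, 32.9, 8.71 and 29.8 CPM in CONV, and 32.8, 38.5 and 41.4 CPM in sham libraries. The pair was the lowest by far. Outside the pair its log2 fold change was -0.25 ± 0.15 in FLASH against sham and -0.28 ± 0.17 in CONV against sham, and the groups overlapped. Inclusion of the pair gave -0.49 ± 0.48 and -0.66 ± 0.52.

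**Figure D3:**
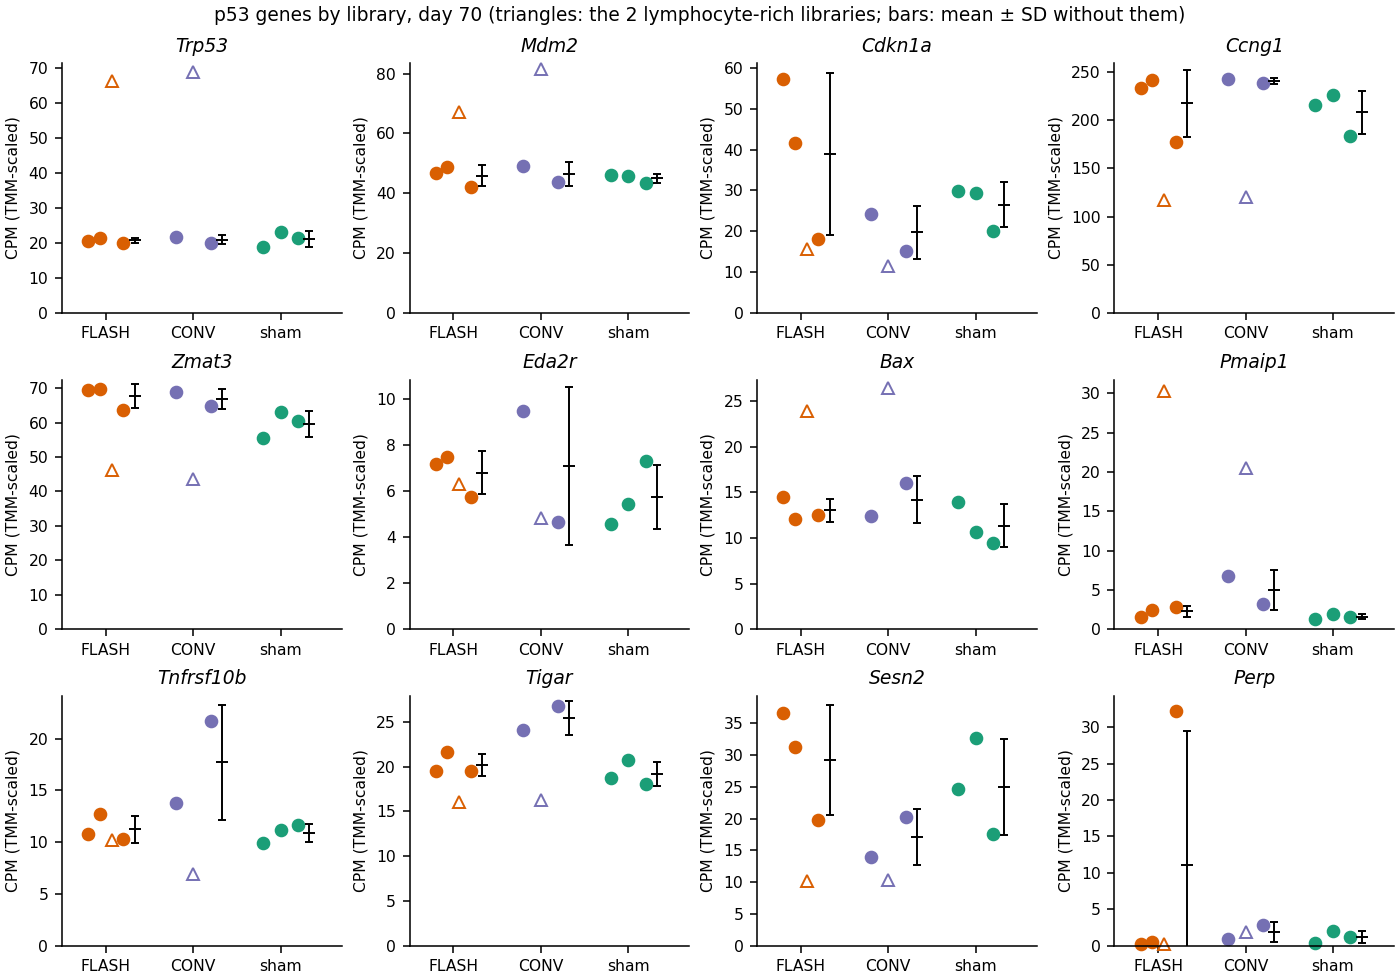
TMM-scaled CPM (y, from 0) of 12 p53 genes in each FLASH, CONV and sham library, with the lymphocyte-rich pair as open triangles and the mean ± SD of the other libraries as bars (the FLASH bar of Perp is cut off at 0). Trp53, Mdm2, Bax and Pmaip1 are high in the triangles, Ccng1, Zmat3 and Tigar are low in them, and Perp is high in FLASH replicate 4 alone.

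Among the 9 apoptosis genes 0 were called by edgeR, and Pmaip1 had the smallest p-value of all p53 genes. Pmaip1 encodes Noxa, a BH3-only protein that disarms the survival protein Mcl1. It had 1.51, 2.45, 30.3 and 2.84 CPM in FLASH, 6.76, 20.5 and 3.16 CPM in CONV, and 1.28, 1.99 and 1.55 CPM in sham libraries. Every CONV library lay above every sham library, and the pair was highest, 13.7-fold and 9.26-fold above the median of the other 8. With 10 libraries the log2 fold change was 2.53 ± 1.17 in FLASH against sham and 2.66 ± 1.21 in CONV against sham, with adjusted p-values of 0.998 and 0.607 (edgeR, Benjamini-Hochberg). Both irradiated groups against sham gave 2.60 ± 1.12, with an unadjusted edgeR p of 0.0455 and an adjusted p of 0.750. Without the pair it was 0.50 ± 0.38 in FLASH against sham, 1.61 ± 0.41 in CONV against sham and -1.12 ± 0.41 in FLASH against CONV. The CONV value corresponds to a fold of 3.06 (95% interval 1.58 to 5.93), with an unadjusted edgeR p of 0.00460 and an adjusted p of 0.165. DESeq2 on the same 8 libraries gave 1.63 ± 0.46 with a Benjamini-Hochberg adjusted p of 0.0157. The CONV arm then holds 2 libraries, and leaving out a further library moved the log2 fold change between 0.95 and 2.06. The higher of the 2, CONV replicate 1, was also the library highest in macrophage and muscle markers (2476 and 2810 CPM). With the mean of the muscle markers as a covariate in the 8-library fit the log2 fold change was 1.34 ± 0.38 (edgeR adjusted p = 0.120), and the part of macrophages was not tested. With the mean of the B cell markers as a covariate and all 10 libraries it was 1.18 ± 0.45 in CONV against sham (edgeR adjusted p = 0.407). As this covariate mainly marks the pair, the value is not independent of leaving the pair out.

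Perp, a membrane protein that p53 induces and that also belongs to desmosomes of the epidermis, had 0.242, 0.512, 0.193 and 32.3 CPM in FLASH, 0.897, 1.88 and 2.87 CPM in CONV, and 0.304, 2.05 and 1.14 CPM in sham libraries. FLASH replicate 4 alone was high, and it was also the library with 210 CPM of keratinocyte markers, whose Krt5 and Krt14 stood at 30.4 and 20.3 CPM there, against 3.94 and 2.32 CPM at most elsewhere. The part of these cells in the Perp value was not tested. The log2 fold change of 3.24 ± 1.67 in FLASH against sham with 8 libraries had an adjusted p of 1.00 (edgeR, Benjamini-Hochberg), and the 95% interval of the fold ran from 0.651 to 138. With 10 libraries the log2 fold change was 2.83 ± 1.80.

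Of the genes of the mitochondrial route, Bax and Apaf1 were highest in the pair and Bbc3 was not. Bax, which permeabilises the outer mitochondrial membrane, had 14.5, 12.0, 24.0 and 12.5 CPM in FLASH, 12.4, 26.5 and 16.1 CPM in CONV, and 14.0, 10.6 and 9.48 CPM in sham libraries. Outside the pair its groups overlapped, and the fold was 1.14 (95% interval 0.845 to 1.54) in FLASH against sham and 1.23 (0.886 to 1.72) in CONV against sham, and the log2 fold change with all 10 libraries was 0.47 ± 0.34 and 0.69 ± 0.36. Bbc3, which encodes the BH3-only protein Puma, had 10.7, 7.61, 6.64 and 6.27 CPM in FLASH, 3.23, 6.23 and 13.1 CPM in CONV, and 11.4, 9.24 and 6.76 CPM in sham libraries. Its lowest and highest library were both CONV, and neither irradiated group separated from sham. Apaf1, the scaffold of the apoptosome, had 26.3, 29.8, 65.7 and 32.7 CPM in FLASH, 40.3, 75.0 and 31.0 CPM in CONV, and 29.1, 30.8 and 30.7 CPM in sham libraries. All CONV libraries exceeded all sham libraries, CONV replicate 3 by a margin of less than 1 CPM, and the log2 fold change in CONV against sham was 0.22 ± 0.16 without the pair and 0.69 ± 0.41 with it. Aen, a p53-induced nuclease, had 13.1, 11.5, 16.5 and 8.47 CPM in FLASH, 10.5, 17.2 and 11.6 CPM in CONV, and 8.96, 9.60 and 8.27 CPM in sham libraries. CONV lay above sham in every library and FLASH in all but replicate 4, and without the pair the log2 fold change was 0.29 ± 0.18 in FLASH against sham and 0.29 ± 0.20 in CONV against sham, beside 0.47 ± 0.27 and 0.55 ± 0.28 with it.

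Trp53inp1, a nuclear cofactor of p53 that also acts in autophagy, had 91.9, 92.5, 274 and 81.5 CPM in FLASH, 92.6, 656 and 67.0 CPM in CONV, and 74.5, 82.7 and 86.8 CPM in sham libraries. The 656 CPM of CONV replicate 2 was 7.74-fold above the median of the 8 libraries outside the pair, where the groups overlapped. Its log2 fold change in CONV against sham was -0.044 ± 0.16 without the pair and 1.74 ± 0.85 with it. Phlda3, a PH-domain protein that restrains Akt signalling, was the most abundant of the 30 per length of exon, at 107 CPM per kb in sham. It had 185, 140.2, 24.7 and 102 CPM in FLASH, 63.6, 39.5 and 277 CPM in CONV, and 206, 170.0 and 125 CPM in sham libraries. CONV held both the highest library and, outside the pair, the lowest, so the interval of the CONV fold was wide, 0.425 to 2.37, and the log2 fold change was 0.0056 ± 0.54 without the pair and -0.40 ± 0.81 with it. Ei24, a membrane protein of the endoplasmic reticulum, had 125, 133, 59.2 and 116 CPM in FLASH, 136, 51.5 and 113 CPM in CONV, and 112, 119 and 126 CPM in sham libraries. Both low values were in the pair, and without it the fold was 1.04 (95% interval 0.871 to 1.25) in FLASH against sham and 1.04 (0.849 to 1.27) in CONV against sham, while the log2 fold change with it was -0.14 ± 0.36 and -0.24 ± 0.38.

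Of the TNF receptor family genes 0 of 3 were called by edgeR, and Tnfrsf10b had the smallest p-value of them. Tnfrsf10b (chr14:69767472-69784411, mm10), the mouse receptor for the death ligand TRAIL, had 10.8, 12.7, 10.2 and 10.3 CPM in FLASH, 13.8, 6.94 and 21.7 CPM in CONV, and 9.90, 11.2 and 11.6 CPM in sham libraries. Outside the pair both CONV libraries lay above every FLASH and sham library, with CONV replicate 3 the highest of all, while the CONV library of the pair was the lowest of all. With 8 libraries the log2 fold change was 0.04 ± 0.19 in FLASH against sham, 0.68 ± 0.21 in CONV against sham and -0.64 ± 0.21 in FLASH against CONV. The unadjusted edgeR p-values of the CONV comparisons were 0.0121 against sham and 0.0160 for FLASH against CONV, and the adjusted ones 0.232 and 0.247. With the mean of the muscle markers as a covariate the log2 fold changes were 0.70 ± 0.20 and -0.66 ± 0.20. With 10 libraries the values were 0.37 ± 0.35 in CONV against sham and -0.36 ± 0.33 in FLASH against CONV. When CONV replicate 1 was also left out, so that CONV replicate 3 stood alone and its spread was taken from FLASH and sham, the log2 fold change in CONV against sham was 0.96 with an edgeR adjusted p of 0.0298. That fit called 1 of 29 p53 genes in CONV against sham, against 7.22% of all genes. Eda2r, a receptor of the ectodysplasin family, had 7.18, 7.50, 6.33 and 5.75 CPM in FLASH, 9.51, 4.83 and 4.67 CPM in CONV, and 4.56, 5.44 and 7.29 CPM in sham libraries. Its groups overlapped with and without the pair, and without it the log2 fold change was 0.23 ± 0.30 in FLASH against sham and 0.28 ± 0.33 in CONV against sham, beside 0.22 ± 0.31 and 0.14 ± 0.33 with it. Fas, the receptor for Fas ligand, had 32.6, 34.1, 25.7 and 28.2 CPM in FLASH, 29.5, 24.3 and 30.2 CPM in CONV, and 30.1, 34.0 and 32.1 CPM in sham libraries. Its 8 libraries outside the pair spanned a 1.21-fold range, and the fold was 0.980 (95% interval 0.819 to 1.17) in FLASH against sham and 0.919 (0.751 to 1.12) in CONV against sham, and the log2 fold change with all 10 was -0.09 ± 0.16 and -0.20 ± 0.17.

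In the metabolic group, 0 of 5 genes were called with 10 libraries and 0 of 4 with 8 by edgeR. Tigar (chr6:127085116-127109557, mm10), a fructose bisphosphatase that slows glycolysis, had 19.5, 21.6, 16.02 and 19.5 CPM in FLASH, 24.1, 16.3 and 26.8 CPM in CONV, and 18.8, 20.7 and 18.1 CPM in sham libraries. Outside the pair both CONV libraries were above all FLASH and sham libraries, while the pair was the lowest of all. The log2 fold change with 8 libraries was 0.39 ± 0.13 in CONV against sham and -0.32 ± 0.13 in FLASH against CONV, with adjusted p-values of 0.259 and 0.331 (edgeR, Benjamini-Hochberg). In FLASH against sham it was 0.07 ± 0.12. With 10 libraries these were 0.22 ± 0.21, -0.23 ± 0.20 and -0.0021 ± 0.20.

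The sestrins restrain mTOR when amino acids are scarce. Sesn2 had 36.7, 31.3, 10.1 and 19.8 CPM in FLASH, 13.9, 10.3 and 20.2 CPM in CONV, and 24.7, 32.7 and 17.6 CPM in sham libraries. FLASH replicates 1 and 2 were near the top and CONV was low, and all groups overlapped. Without the pair Sesn2 gave 0.22 ± 0.29 in FLASH against sham, -0.57 ± 0.33 in CONV against sham and 0.79 ± 0.34 in FLASH against CONV on the log2 scale. The last had an unadjusted edgeR p of 0.0472 and an adjusted p of 0.356. All 10 libraries gave -0.03 ± 0.44, -0.75 ± 0.47 and 0.72 ± 0.44, so the sign in FLASH against sham turned. Sesn1 had 43.6, 42.0, 64.3 and 54.9 CPM in FLASH, 52.5, 58.6 and 26.3 CPM in CONV, and 40.7, 45.5 and 45.1 CPM in sham libraries. CONV replicate 3 alone was low, below all other libraries, and FLASH against CONV on the log2 scale was 0.26 ± 0.27 without the pair and 0.16 ± 0.28 with it. With CONV replicate 3 as the only CONV library, Sesn1 gave 0.85 in FLASH against CONV (edgeR adjusted p = 0.0464), and it was 1 of 2 p53 genes of 29 called there, with Tnfrsf10b, against 6.52% of all genes.

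Ddit4l, an mTOR inhibitor known from skeletal muscle, had 1.39, 2.27, 0.965 and 1.298 CPM in FLASH, 10.5, 1.04 and 0.221 CPM in CONV, and 0.729, 1.27 and 6.96 CPM in sham libraries. Its 3 highest libraries, CONV replicate 1, sham replicate 3 and FLASH replicate 2, were the 3 with the most muscle marker RNA (2810, 837 and 422 CPM). The log2 fold change in CONV against sham was 0.84 ± 1.27 with 8 libraries and -0.95 ± 0.56 with the mean of the muscle markers as a covariate, so its sign turned (edgeR adjusted p of 0.811 and 0.357). It was 0.40 ± 1.23 with 10 libraries. Gdf15 encodes a secreted stress hormone that acts on appetite through the hindbrain. It was close to the floor of 0.0909 to 0.116 CPM, with 11, 6, 8 and 2 counts in FLASH, 11, 14 and 9 counts in CONV, and 3, 6 and 2 counts in sham libraries. In CPM these were 0.333, 0.220, 0.309 and 0.0618 in FLASH, 0.352, 0.469 and 0.331 in CONV, and 0.0911, 0.195 and 0.0672 in sham libraries. Every CONV library lay above every sham library, while FLASH overlapped with sham. The log2 fold change with 10 libraries was 1.67 ± 0.65 in CONV against sham, with an unadjusted edgeR p of 0.0306 and an adjusted p of 0.607, and 0.94 ± 0.63 in FLASH against sham. Gdf15 passed the low-count filter only through irradiated libraries, the lymphocyte-rich pair among them, as no sham library held more than 6 counts. The difference from sham is therefore not independent of the filter, and no conclusion is drawn from it.

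Of the repair genes 0 of 5 were called by edgeR with either set. Xpc, which senses helix distortion in nucleotide excision repair, had 36.3, 35.8, 30.9 and 37.4 CPM in FLASH, 33.1, 24.9 and 35.2 CPM in CONV, and 36.3, 34.0 and 36.0 CPM in sham libraries. Its 8 libraries outside the pair spanned a 1.13-fold range, the narrowest of the 30, and the fold was 1.02 (95% interval 0.882 to 1.19) in FLASH against sham and 0.951 (0.804 to 1.13) in CONV against sham. The log2 fold change of Xpc with 10 libraries was -0.014 ± 0.16 and -0.19 ± 0.17. Polk, a translesion DNA polymerase, had 19.9, 20.1, 23.2 and 20.1 CPM in FLASH, 24.3, 23.6 and 19.8 CPM in CONV, and 21.7, 24.6 and 27.6 CPM in sham libraries. Outside the pair the FLASH libraries lay within 1 CPM of each other and below all sham libraries, with a log2 fold change of -0.31 ± 0.13 and the smallest unadjusted edgeR p of FLASH against sham, 0.0530, beside -0.24 ± 0.15 with all 10 libraries. Ercc5, the nuclease that cuts 3′ of a lesion, had 25.7, 25.6, 24.1 and 26.9 CPM in FLASH, 24.8, 23.0 and 24.7 CPM in CONV, and 27.0, 25.1 and 30.7 CPM in sham libraries. All CONV libraries were below all sham libraries by a log2 fold change of -0.18 ± 0.13 without the pair and -0.19 ± 0.14 with it. Rrm2b, the p53-inducible ribonucleotide reductase subunit, had 55.5, 54.7, 57.8 and 62.1 CPM in FLASH, 56.0, 48.1 and 47.9 CPM in CONV, and 54.2, 54.9 and 63.6 CPM in sham libraries. Its groups overlapped, and CONV replicates 2 and 3 were the lowest. Ddb2, a sensor of ultraviolet damage, had 11.7, 11.4, 34.6 and 16.8 CPM in FLASH, 14.3, 31.9 and 15.2 CPM in CONV, and 13.1, 11.4 and 15.4 CPM in sham libraries. The pair was high, and without it the fold was 0.997 (95% interval 0.731 to 1.36) in FLASH against sham and 1.10 (0.776 to 1.55) in CONV against sham, while the log2 fold change with it was 0.49 ± 0.45 and 0.62 ± 0.48. Ddb2 shares 652 exon bases (23.8% of its exons) with Acp2 on the opposite strand, and no source used here says whether the counting used strand.

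Genes whose groups did not overlap were also counted. In FLASH against sham the groups did not overlap for 0 of 30 genes with 10 libraries, against 4.91% of all genes, and for 2 of 29 with 8 (Zmat3 higher, Polk lower), against 9.78%. In CONV against sham they did not overlap for 5 of 30 genes, with Pmaip1, Apaf1, Aen and Gdf15 higher and Ercc5 lower, against 17.7% of all genes. Of these, Gdf15 had passed the low-count filter only through irradiated libraries. With 8 libraries it was 8 of 29, against 26.1% of all genes. Among these 8, 7 were higher (Ccng1, Zmat3, Pmaip1, Apaf1, Aen, Tnfrsf10b and Tigar), against 13.0% of all genes, and 1, Ercc5, was lower, against 13.2%. In FLASH against CONV it was 0 of 30, against 2.25%, and with 8 libraries 5 of 29, against 26.1%, with Xpc and Ercc5 higher and Pmaip1, Tnfrsf10b and Tigar lower in FLASH.

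Over all the p53 genes the log2 fold changes were centred near 0. With 8 libraries the median over 29 genes was 0.04 in FLASH against sham, 0.03 in CONV against sham and 0.0032 in FLASH against CONV, beside -0.01, 0.01 and -0.02 over all genes. Positive values numbered 17 of 29 in FLASH against sham (48.5% of all genes) and 16 of 29 in CONV against sham (51.3%). With 10 libraries the medians over 30 genes were 0.12, 0.18 and -0.07, beside 0.03, 0.08 and -0.04. The FLASH and CONV comparisons with sham share the same sham libraries.

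The intervals give the size of change that these libraries leave room for. Without the pair, the 95% interval of the fold lay wholly within 2-fold up or down for 23 of 29 genes in FLASH against sham, for 20 in CONV against sham and for 21 in FLASH against CONV. It lay within 1.5-fold for 16, 13 and 14 genes. The upper end was under 2-fold for 25 genes in FLASH against sham and for 22 in CONV against sham, Mdm2, Ccng1, Bax, Zmat3 and Fas among them in both. With all 10 libraries the interval lay within 2-fold for only 13 of 30 genes in FLASH against sham and for 11 in CONV against sham.

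The wider pathway was read from 3 further lists, of upstream regulators, of other targets and of cell cycle genes that p53 lowers through p21. With 8 libraries edgeR called 0 of 21 tested upstream regulators (of 23 listed), 0 of 41 other targets (of 42) and 0 of 16 cell cycle genes in every comparison. The share of all genes called there was 0% to 0.0393%. With 10 libraries it called 0 of these genes as well, against 0% of all genes. At such shares a count of 0 does not set these lists apart from other genes. At an unadjusted edgeR p under 0.05 with 8 libraries, CONV against sham had 1 of 21 upstream regulators, 6 of 41 other targets and 0 of 16 cell cycle genes, against 13.3% of all genes. FLASH against CONV had 3, 8 and 0, against 13.7%, and FLASH against sham had 0 in all 3 lists, against 2.52%. With 10 libraries the counts were 0, 3 and 1 in CONV against sham, against 5.82% of all genes, 0, 1 and 0 in FLASH against CONV, against 2.97%, and 0 in all 3 lists in FLASH against sham, against 0.648%. The genes described by name had some of the smallest unadjusted p-values of their list in any comparison, with 10 or with 8 libraries. For Ccnb1 and Cdc25c these came with the pair included. Their unadjusted edgeR p in CONV against sham was 0.0546 and 0.0423 with 10 libraries, and 0.922 and 0.545 with 8.

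Igfbp3, a secreted carrier of insulin-like growth factors, had 43.4, 28.4, 130.0 and 38.1 CPM in FLASH, 17.0, 91.0 and 13.6 CPM in CONV, and 21.5, 35.1 and 29.5 CPM in sham libraries. Here the pair was the highest, and the 2 other CONV libraries were the lowest of all. Its log2 fold change with 8 libraries was -0.93 ± 0.26 in CONV against sham and 1.27 ± 0.26 in FLASH against CONV, with edgeR adjusted p-values of 0.188 and 0.136. With all 10 libraries these became 0.50 ± 0.79 and 0.57 ± 0.75, with adjusted p-values of 0.782 and 0.999 in edgeR, so the sign in CONV against sham turned. Trp53cor1, the noncoding RNA lincRNA-p21 made next to Cdkn1a, had 3.85, 2.23, 1.51 and 1.36 CPM in FLASH, 0.865, 1.61 and 0.405 CPM in CONV, and 2.31, 3.65 and 1.92 CPM in sham libraries. All CONV libraries lay below all sham libraries, and with 8 libraries the log2 fold change was -2.05 ± 0.57 in CONV against sham and 1.96 ± 0.57 in FLASH against CONV, with edgeR adjusted p-values of 0.195 and 0.206. The 10 libraries gave -1.45 ± 0.60 and 1.22 ± 0.57, with adjusted p-values of 0.607 and 0.999 in edgeR.

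Upstream, the kinases Chek2 and Hipk2, which phosphorylate p53, and Ppp1r13b, which encodes the p53-binding protein ASPP1, had the smallest p-values with 8 libraries. Chek2 had 8.96, 8.09, 11.2 and 7.72 CPM in FLASH, 6.12, 13.6 and 5.81 CPM in CONV, and 7.14, 7.29 and 8.47 CPM in sham libraries. Outside the pair both CONV libraries were the lowest for Chek2, with 0.48 ± 0.17 in FLASH against CONV on the log2 scale (edgeR adjusted p = 0.262) and -0.37 ± 0.17 in CONV against sham. With all 10 libraries, where the pair was the highest, these were 0.08 ± 0.32 (edgeR adjusted p = 0.999) and 0.16 ± 0.34. For Hipk2 and Ppp1r13b the log2 fold change was 0.73 ± 0.29 and 0.39 ± 0.13 in FLASH against CONV, with adjusted p-values of 0.322 and 0.255 (edgeR, Benjamini-Hochberg), and with all 10 libraries 0.78 ± 0.59 and 0.24 ± 0.28, each with an adjusted p of 0.999.

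**Figure D4:**
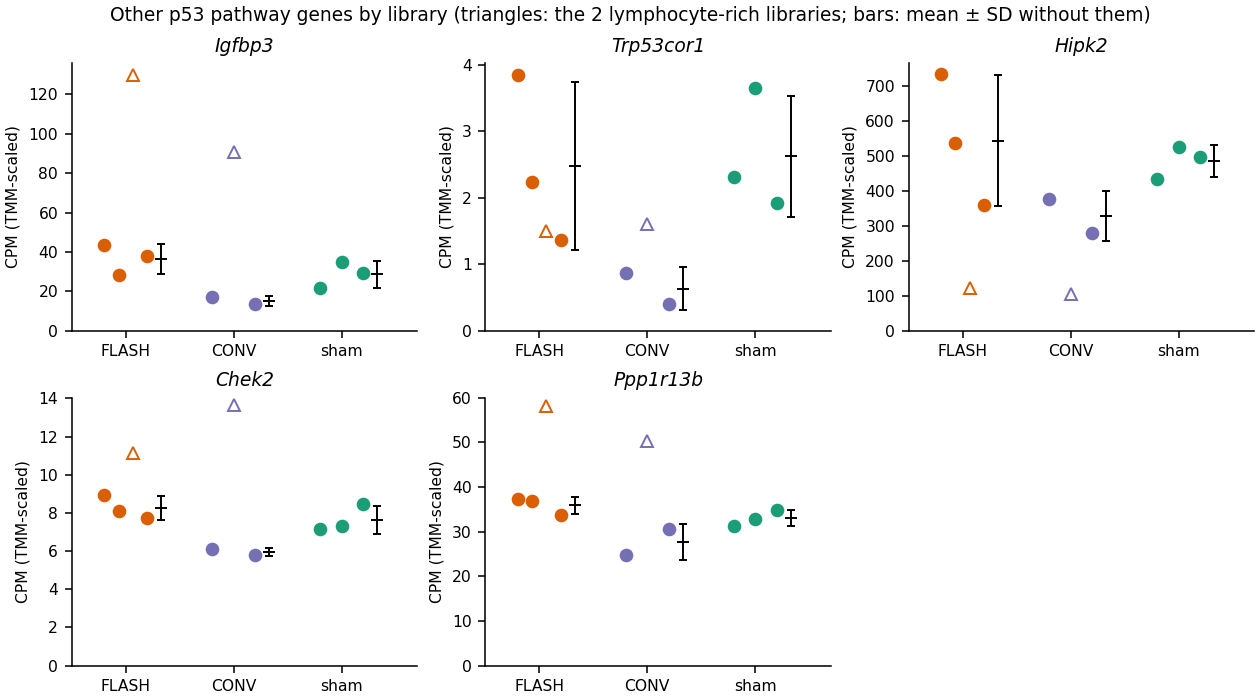
TMM-scaled CPM (y, from 0) of 5 other p53 pathway genes in each FLASH, CONV and sham library, with the lymphocyte-rich pair as open triangles and the mean ± SD of the other libraries as bars. The filled CONV points lie below all sham points for each of the 5 genes.

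The cell cycle genes that p53 lowers through p21 were high in the pair. With 10 libraries their median log2 fold change was 1.07 in FLASH against sham and 2.49 in CONV against sham, positive for 16 of 16 genes in both, and with 8 libraries it was -0.01 and -0.05, positive for 8 and 5 of 16. Ccnb1, the mitotic cyclin, had 1.73, 1.43, 7.68 and 0.772 CPM in FLASH, 1.06, 26.5 and 1.47 CPM in CONV, and 1.25, 1.63 and 0.975 CPM in sham libraries. Only the lymphocyte-rich libraries were high, and the same held for Cenpf, a kinetochore protein, with 16.6 CPM in FLASH replicate 3 and 41.7 CPM in CONV replicate 2, against 2.11 to 6.25 CPM in the other 8. Cdc25c, a phosphatase of mitotic entry, had 1.93 and 7.67 CPM in the pair, against 0.101 to 0.662 CPM in the other 8.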

How the data were processed

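Total RNA sequencing gave 10 libraries (4 FLASH, 3 CONV and 3 sham). The authors deposited raw counts, as whole numbers for each gene symbol in each library. The submitters' processing notes name kallisto 0.5.0 and mm10, yet each deposited count file ends in 5 entries with the names used by htseq-count, which held 52.0% to 69.6% of all counts and were left out. No source used here names the aligner, the strand setting or the annotation.

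Genes were kept by filterByExpr and libraries scaled by TMM (factors 0.875 to 1.17). The edgeR 4.0.16 (R 4.3.3) quasi-likelihood test, with robust dispersion and group means, was fitted to all groups at once, on 15266 genes with 10 libraries and 15252 with 8. Each irradiated group was tested against sham, FLASH against CONV, and the average of FLASH and CONV against sham, all two-sided. The Benjamini-Hochberg adjustment ran over all genes tested in a comparison. Common dispersion corresponded to a biological coefficient of variation of 0.543 with 10 libraries and 0.284 with 8. CPM are TMM-scaled, and levels are compared between genes only per kb of merged exons in GENCODE M21. Intervals are 95% from the edgeR fit. The steps were tested on simulated data. DESeq2 1.42.0 and limma 3.58.1 (voom) were alternatives, with other scalings, filters, covariates, the replicate number as a block and each library left out. The p53 genes, the further lists and the set of 8 libraries were chosen with earlier results of these data known, so their pattern is not independent evidence. All p53 genes are described, and of each further list the 3 with the smallest p-values, except a gene that is not reported here. Of the listed genes, 2 were found under older symbols. Promoter sequences are RefSeq's, on GRCm38.p6.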

Additional observations from a re-analysis of the deposited data

Results flagged for a closer look

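Some FLASH values had a library far from the other 3, judged by the gap between the most extreme library and its nearest neighbour as a share of the whole range of the 4. Chance alone marks about 1 in 20 groups, and 6 of the 30 p53 genes were marked, against 22.3% of all 15266 genes tested. Most marks of both kinds belonged to FLASH replicate 3, 5 of the 6 and 3198 of 3411, a library of the lymphocyte-rich pair that lay outside the other 8 for 63.5% of all genes. In FLASH replicate 3 the share was 0.969 for Trp53, 0.954 for Pmaip1, 0.943 for Trp53inp1, 0.934 for Polk and 0.84 for Apaf1, each with that library high. The same library was marked for its summed B cell and lymph node markers (0.999) and T cell markers (0.996). FLASH replicate 4 was high for Perp (0.99) and for summed keratinocyte markers (0.951), and FLASH replicate 2 for summed muscle markers (0.873). The groups of 3 libraries were not examined in this way. The part of keratinocytes in the Perp value was not tested.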

How the results depend on the processing

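The count of p53 genes past the edgeR threshold was 0 under the scalings, filters and tests tried with 10 libraries, and the exceptions with 8 were few. DESeq2 with 8 libraries called 1 in CONV against sham (Pmaip1). Without the pair and without CONV replicate 1, CONV against sham had 1 (Tnfrsf10b) and FLASH against CONV had 2 (Sesn1 and Tnfrsf10b), and the cause was not tested. Over the fits that left out 1 library each, with and without the pair, the count was 0 to 1 in CONV against sham, 0 to 2 in FLASH against CONV and 0 in the other comparisons. No p53 gene was called with 10 libraries, and the values called in other fits kept the sign they had with 10 libraries. Counts over all genes moved more: with 8 libraries 6 genes in CONV against sham and 2 in FLASH against CONV passed in edgeR, against 661 and 667 in DESeq2, and without CONV replicate 1 as well edgeR gave 1134 and 1025. With 10 libraries DESeq2 gave 66 and 40, against 0 in edgeR. The replicate number as a block gave 0 called p53 genes in every comparison, with 10 and with 8 libraries. It also gave 0 called genes of all 15266 and of all 15252 tested, so this count says nothing particular to the p53 genes. Deviations of same-numbered libraries from their group means correlated between -0.798 and 0.338 with 10 libraries and between -0.638 and 0.482 with 8. The groups are small, and the lymphocyte-rich pair enters the values with 10 libraries. The correlations therefore cannot show whether the numbers pair the libraries. Fitting only the groups compared gave no value for both irradiated groups against sham.

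Gdf15 had 2 to 14 counts per library, and Perp and Ddit4l also had libraries with few counts, 5 and 6 at the lowest. The median SE of the log2 fold change in FLASH against sham was 0.15 with 8 libraries and 0.35 with 10, and CONV rests on 2 libraries in the smaller set. Leaving out the pair changed the sign of 9 of 29 genes in FLASH against sham.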
